A study of Caenorhabditis elegans with 16 samples.

Results

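The comparison described here set SKN-1t[NDNN] animals against SKN-1t[NNNN] animals, 2 strains of Caenorhabditis elegans whose transgenic transcription factor differs by 1 amino acid, an asparagine replaced by an aspartate. It took in 8 of the 16 RNA-seq samples of the series, 4 of each form, chosen by the form of SKN-1t named in their labels. All genes with enough counts were examined. The SKN-1t[NNNN] strain, GR3105, carried unc-119(ed3) III and mgTi21(SKN-1t[NNNN]), and the SKN-1t[NDNN] strain, NJL2492, carried unc-119(ed3) III and mgTi42(SKN-1t[NDNN]). SKN-1t is SKN-1 cut short at its N-terminus, so that it lacks the transmembrane segment of SKN-1A and also the first part of SKN-1C. It is tagged with HA and GFP and driven by the rpl-28 promoter, which is active in most tissues. According to the study, the truncated protein escapes the usual controls and activates SKN-1 targets constitutively. Both strains also kept their own skn-1 gene. Each form was represented by a single insertion, so the amino acid change and the insertion site or history of the strain cannot be told apart. The other 8 samples were wild-type N2 animals and animals with SKN-1t[DNDD] (strain NJL2494, unc-119(ed3) III and mgTi41), in which 3 asparagines were replaced. They served here as reference levels. Whole animals were collected at the L4 larval stage from synchronized cultures, and replicate numbers 1 to 4 ran through all 4 groups. According to the study's methods, the replicates came from independent populations of animals.

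SKN-1 is the nematode member of the family that holds the mammalian factors NRF1 and NRF2. Its isoform SKN-1A, like NRF1, enters the endoplasmic reticulum, where asparagines are glycosylated. It is then moved back to the cytosol by the CDC-48 segregase, stripped of its glycans by PNG-1, which turns those asparagines into aspartates, and cut by the protease DDI-1. SKN-1A is known for inducing the genes of the proteasome, and the isoform SKN-1C, like NRF2, for inducing genes of glutathione and xenobiotic metabolism. The NDNN form mimics this change at a single position, so the comparison asks what that position alone alters in the transcriptome.

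Between 23806929 and 30457636 reads were counted per sample over the whole series (23806929 to 27786621 in NNNN and 28228441 to 30457636 in NDNN), and 14850 of 19122 genes passed the filter on low counts. Replicates differed by more than counting noise (chi-square per degree of freedom of 13.5 to 95.1 over the 12 pairs of samples within the 2 groups), so no sample was a copy of another. Reads of skn-1 itself, which come from the transgene and the chromosomal gene together, stood at 335, 304, 299 and 269 CPM (read counts scaled to the size of the library) in NNNN replicates 1 to 4 and at 288, 320, 257 and 265 CPM in NDNN, against 112 to 133 CPM in wild type. The 2 forms overlapped, and the log2 difference of -0.10 (SE 0.0759) did not pass (adjusted p = 0.586). The gene unc-119, at which both strains carry ed3, averaged 15 ± 0.774 CPM in NNNN and 15.5 ± 1.17 CPM in NDNN (SD, n = 4 each), against 9.05 to 9.89 CPM in wild type, and its difference of 0.05 did not pass either. Throughout, differences are NDNN minus NNNN on the log2 scale, and an adjusted p is the Benjamini-Hochberg value of edgeR's quasi-likelihood test over all genes tested.

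Far more genes were higher than lower in NDNN. At a 2-fold change and an adjusted p below 0.01, 62 genes were higher in NDNN (0.418% of the genes tested) and 2 were lower (0.0135%). At an adjusted p below 0.05 alone, 184 genes were higher (1.24%) and 30 lower (0.202%), and it is this threshold that "higher", "lower" or "rose" refer to below. The median difference of all genes was -0.01. All 4 NDNN samples lay above all 4 NNNN samples for 693 genes (4.67%) and below them for 361 (2.43%). At an unadjusted p below 0.05, 8.85% of genes were higher and 6.54% lower. Proteasome subunits made up 33 of the 184 higher genes and 22 of the 62. The number of calls depended on the model: without the replicate numbers, 116 genes were higher and 4 lower, and with the 8 samples alone, replicate numbers kept, 345 and 208. It also depended on single samples. The 184 higher genes became 116 without NDNN replicate 3 and 121 without NNNN replicate 1, and 124 to 206 without any other sample. The 30 lower genes became 8, 46, 4 and 3 without NDNN replicates 1 to 4 and 7, 17, 7 and 10 without NNNN replicates 1 to 4. Of the 184 higher genes, 115 were also called without the replicate numbers, and of the 30 lower genes 4 were.

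**Figure D1:**
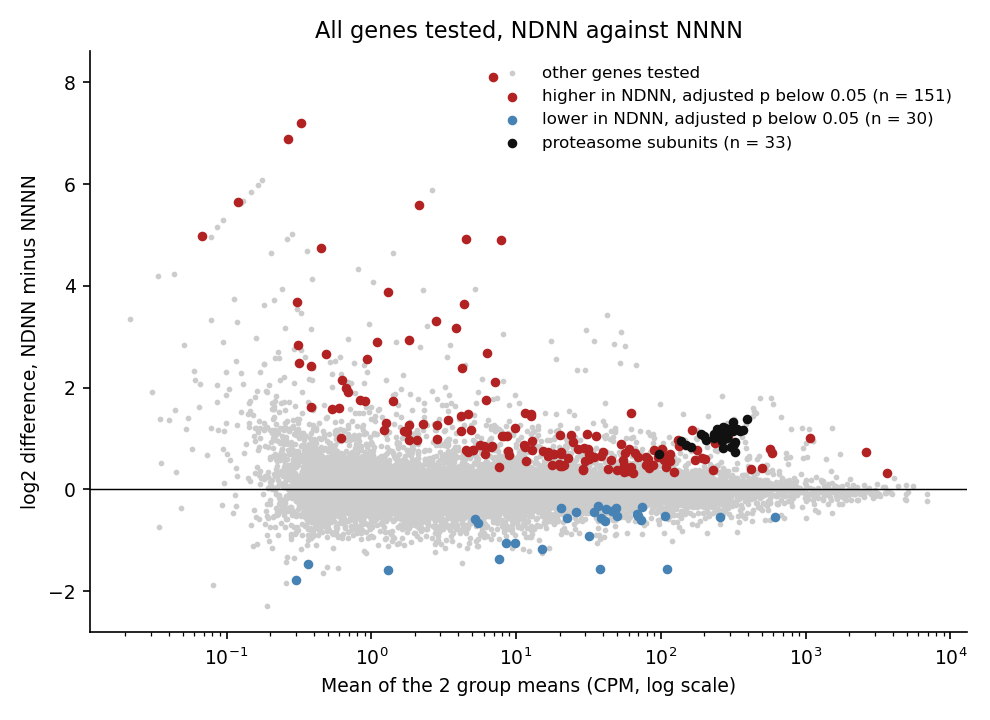
Log2 difference between NDNN and NNNN (vertical axis) against the mean of the 2 group means in CPM (horizontal axis, log scale) for the 14850 genes tested, 1 point a gene. Black points are the 33 proteasome subunits, which sit together between 0.70 and 1.39, red points the 151 other genes that were higher and blue points the 30 that were lower at an adjusted p below 0.05.

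The 26S proteasome degrades ubiquitin-tagged proteins. Its 20S core is a barrel of alpha rings, which form the gate, and beta rings, which hold the proteolytic sites. The 19S cap has ATPases, which unfold the substrate and open the gate, and non-ATPase subunits, which bind and deubiquitylate it. All 33 subunit genes on the list were higher in NDNN, and in each of the 33 every NDNN sample exceeded every NNNN sample. Their median difference was 1.06, against -0.01 for all genes tested. Their CPM summed to between 5377 and 5950 in the NNNN samples and between 10945 and 12558 in the NDNN samples. The sum was 5876 to 7406 in wild type and 14421 to 18664 in DNDD, so NDNN lay between the wild type and DNDD ranges and overlapped neither. The 33 subunits remained called without the replicate numbers, in the 8-sample fit, in DESeq2 and when any single sample was left out.

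The 7 alpha subunit genes had a median difference of 1.15. The largest was that of pas-5 (WBGene00003926), with 202, 215, 242 and 207 CPM in NNNN and 599, 558, 592 and 517 CPM in NDNN. Its lowest NDNN sample was thus more than double its highest NNNN sample, and its difference was 1.39 (SE 0.117, adjusted p = 2.5e-05, a 2.61-fold change). The smallest among the alpha subunits was that of pas-4, whose CPM rose from 172 ± 6.78 (SD, n = 4) to 349 ± 23 (SD, n = 4), a difference of 1.01. The 7 beta subunit genes also had a median of 1.15. They included pbs-4, which went from 167, 186, 195 and 170 CPM to 482, 455, 452 and 404 CPM (difference 1.32, SE 0.108, adjusted p = 2.05e-05), and pbs-5, which encodes the chymotrypsin-like subunit, at 196 ± 9.18 CPM in NNNN and 436 ± 32.1 CPM in NDNN (SD, n = 4 each), a difference of 1.15. The lowest of them was pbs-2 at 1.09.

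The 6 ATPase genes had a median difference of 1.05. The gene rpt-4 showed 200, 209, 208 and 206 CPM in NNNN and 505, 487, 442 and 437 CPM in NDNN (difference 1.18, SE 0.0876, adjusted p = 1.24e-05). The gene rpt-3, whose promoter is in wide use as a reporter of SKN-1A activity, rose from 155 ± 11.8 to 322 ± 25.1 CPM (SD, n = 4 each), a difference of 1.05. The 13 non-ATPase genes had a median of 0.89 and the widest span. At the top was rpn-11, the deubiquitylase of the cap, with 142, 155, 144 and 148 CPM in NNNN and 372, 352, 293 and 337 CPM in NDNN (difference 1.19, SE 0.0878). At the bottom were rpn-1, a scaffold for ubiquitin receptors (0.72, SE 0.101), and dss-1, a small acidic lid subunit (0.70, SE 0.0915). For dss-1 the samples still did not overlap, with 70.1 to 77.9 CPM in NNNN and 116 to 130 CPM in NDNN. The fold cut of 2 therefore split the complex, passing all 14 core genes and 5 of 6 ATPases but 3 of 13 non-ATPase genes. The paralog rpn-6.2, which is expressed in sperm, had a difference of -0.23 and was not called, while its counterpart rpn-6.1 was at 0.88.

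**Figure D2:**
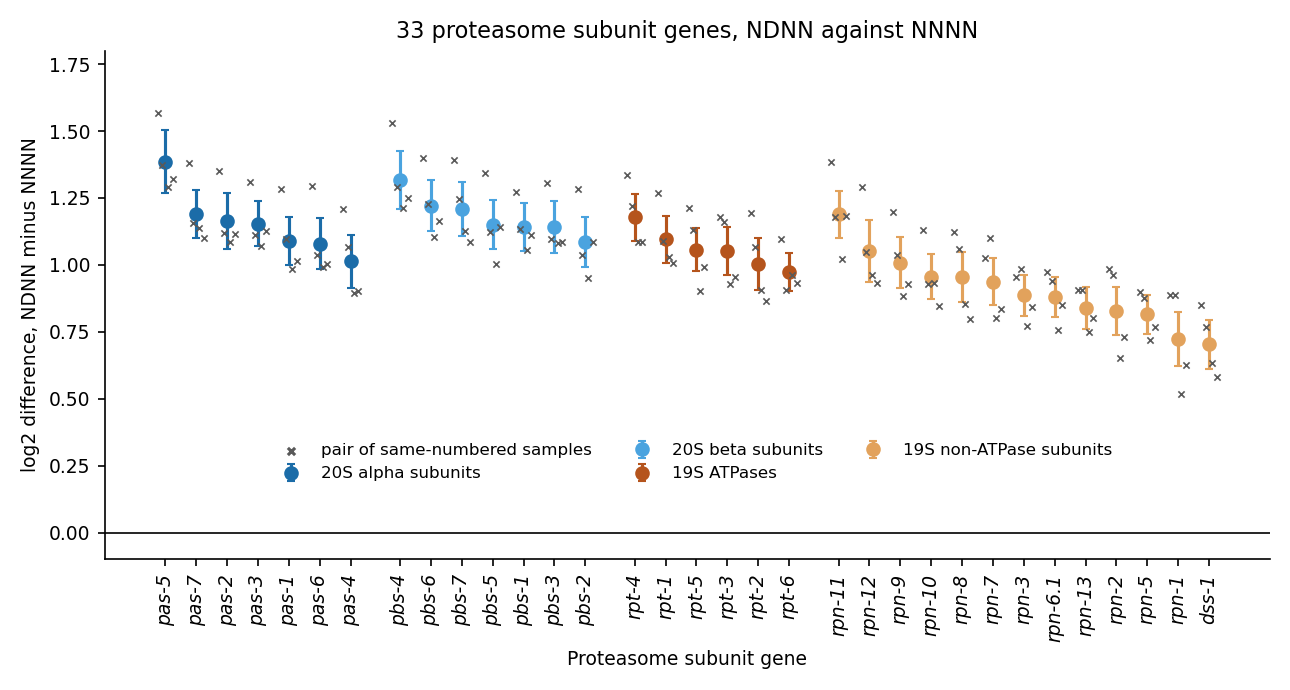
Log2 difference between NDNN and NNNN for each of 33 proteasome subunit genes, ordered by size within the 4 classes of subunit. Circles are the fitted differences with their standard errors and crosses the differences of the 4 pairs of same-numbered samples. Every cross lies above 0, and the fitted values run from 1.39 for pas-5 down to 0.70 for dss-1.

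The same subunits also differed among the other strains. In NNNN against wild type, a comparison that shares the NNNN samples, 17 of the 33 were lower at an adjusted p below 0.05, where 25.2% of all genes were, and the median was -0.23. In DNDD against NDNN, which shares the NDNN samples, 31 of the 33 were higher in DNDD (14.8% of all genes), with a median of 0.43. The order of the mean levels was NNNN, wild type, NDNN and DNDD for each of the 33. The mean of pas-5, for instance, was 217, 258, 566 and 862 CPM in these groups.

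Some of the genes that serve the proteasome and the maturation of SKN-1A itself were higher too. Of 14 genes of SKN-1A processing and of the degradation pathway of the endoplasmic reticulum, 7 were higher and 0 lower in edgeR, with a median of 0.45 (8 and 0 at an unadjusted p below 0.05, 7 and 0 in DESeq2). The 7 were the segregase genes cdc-48.1 (0.71) and cdc-48.2 (0.80), their cofactors ufd-1 (0.64), npl-4.1 (0.78), npl-4.2 (0.74) and ufd-3 (0.56), and the protease gene ddi-1 (0.58). The CPM of cdc-48.2 was 374, 426, 387 and 457 in NNNN and 729, 772, 608 and 765 in NDNN, without overlap. The genes npl-4.1 and npl-4.2 are close copies that lie within 10 kb of each other on chromosome II, so reads may be shared between them, and the same may hold for the 2 closely related cdc-48 genes. The ligase and membrane genes of the pathway did not pass: sel-1, sel-11, hrdl-1 and marc-6 ranged from -0.10 to 0.08. Nor did png-1, which encodes the deglycosylating enzyme, with 30.9 CPM in NNNN and 30.8 CPM in NDNN on average and a difference of -0.01.

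Of 29 genes for ubiquitin, its conjugating enzymes, shuttle factors and proteasome-bound deubiquitylases, 4 were higher and 0 lower in edgeR, and the median was 0.10 (7 and 0 at an unadjusted p below 0.05, 5 and 0 in DESeq2). These were usp-14, a deubiquitylase of the cap (0.96, SE 0.126), ubc-18, a conjugating enzyme (0.66, SE 0.0936), rad-23, a shuttle that carries ubiquitylated proteins (0.61, SE 0.0782), and ubh-4, a further deubiquitylase of the cap (0.58, SE 0.11). For usp-14 the NNNN samples had 77.3, 80.1, 87.7 and 113 CPM and the NDNN samples 178, 168, 161 and 189 CPM, and for ubc-18 the values were 79.2 to 83.7 CPM against 122 to 141 CPM. Neither overlapped. The call for ubh-4 was lost when NNNN replicate 1 or 2 or NDNN replicate 1, 3 or 4 was left out. Ubiquitin itself did not pass: the polyubiquitin gene ubq-1 had a difference of 0.14 and the fusion gene ubq-2 of -0.08. Further genes of the same processes stood among the 184, named here after their values were seen. They were ubxn-1 (0.90) and ubxn-2 (0.36), which encode CDC-48 adaptors, the deubiquitylase genes usp-5 (0.63), ubh-2 (0.48) and ubh-3 (0.38), and the cullin ligase genes cul-1 (0.48) and rbx-1 (0.59). The list also held txl-1 (0.64), whose human counterpart binds the proteasome, and the peptidase genes pam-1 (0.42), lap-2 (0.59) and dpf-5 (0.33).

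The genes with the largest rises were expressed at low levels in NNNN, all at means below 3 CPM. They were ranked by log2 difference, which favours genes with low NNNN values, so the low level was partly set by the choice. The 12 chosen by size among those with at least 1 CPM over the 8 samples had differences of 2.10 to 8.10. They were led by B0416.4 (WBGene00015180; WBcel235, chromosome X, 9278953 to 9279947, plus strand), with 0, 0, 0.138 and 0.0384 CPM in NNNN and 15.4, 14.5, 12.3 and 13.1 CPM in NDNN. Wild type had 0.0415 to 0.209 CPM and DNDD 9.97 to 18.1 CPM, so the gene was near 0 in NNNN and wild type, and its NDNN and DNDD samples overlapped. The fitted difference of 8.10 (SE 0.465, adjusted p = 2.35e-06) rests on few NNNN reads and depends on the prior count. The gene rgs-11 (WBGene00004354; chromosome X, 14964553 to 14965976, plus strand) encodes a regulator of G protein signalling. It had 0.108, 0.0391, 0.0691 and 0.115 CPM in NNNN and 4.56, 4.54, 3.6 and 4.12 CPM in NDNN, a difference of 5.58 (SE 0.406). In the same family, rgs-9 rose from a mean of 0.0284 to 0.869 CPM, a difference of 4.75, with 0.0693 CPM in wild type and 1.66 CPM in DNDD. It was named after its values were seen.

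The unnamed genes F54F7.6 and W06D11.1 had the smallest p of all genes tested (adjusted p = 6.62e-07 each). F54F7.6 (WBGene00010066; chromosome X, 11865383 to 11866827, plus strand) went from 0.144, 0.47, 0.276 and 0.269 CPM to 9.45, 8.72, 8 and 8.91 CPM, a difference of 4.92 (SE 0.239). W06D11.1 (WBGene00012299; chromosome X, 12294563 to 12295542, plus strand) went from 0.54, 0.274, 0.553 and 0.653 CPM to 16.7, 15.4, 14.5 and 14.6 CPM, a difference of 4.91 (SE 0.245). The NDNN samples of both genes were close to each other and more than 10 times above any NNNN sample. The 2 genes differed in their further step: DNDD reached 16.4 to 21.6 CPM for F54F7.6, above every NDNN sample, and 16.2 to 20.9 CPM for W06D11.1, where the DNDD and NDNN ranges overlapped.

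C44B12.6 was the exception among the 12, since the other 11 had a higher mean in DNDD than in NDNN. Of those 11, only F54F7.6, C54G6.2 and rgs-11 passed as higher in DNDD at an adjusted p below 0.05. For the rest the order of the 2 means was not a called difference, as for B0416.4 (DNDD minus NDNN 0.04, adjusted p = 0.922). The values of C44B12.6 were 0.755, 0.626, 0.829 and 0.768 CPM in NNNN, 8.54, 8.66, 5.06 and 5.69 CPM in NDNN and 5.22, 4.64, 2.77 and 3.49 CPM in DNDD, with the NDNN mean on top. Its difference was 3.16 (SE 0.222, adjusted p = 1.24e-05). R03H10.6 had 0.391 to 0.935 CPM in NNNN and 7.05 to 9.18 CPM in NDNN (difference 3.64), and C54G6.2 0.269 to 0.54 CPM and 2.06 to 4.41 CPM (difference 2.93). The F-box gene fbxa-170, which belongs to the substrate receptors of cullin ligases, had 0.0768 to 0.311 CPM and 1.82 to 3.43 CPM (difference 3.87). W06A11.4 differed from the others in that NNNN, at 1.83, 2.04, 3.28 and 3.61 CPM, already exceeded wild type at 0.418 to 0.54 CPM, and it reached 12.1, 13.3, 11.2 and 9.84 CPM in NDNN (difference 2.10, SE 0.229). The remaining 3 of the 12 were Y46E12A.5 (3.32), Y57G11C.8 (2.67) and Y57G11C.1130 (2.39). The last pair overlap on the same strand of chromosome IV, from 14781837 to 14782895 and from 14782511 to 14783355, so their reads cannot be fully separated and they may count as 1 locus.

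**Figure D3:**
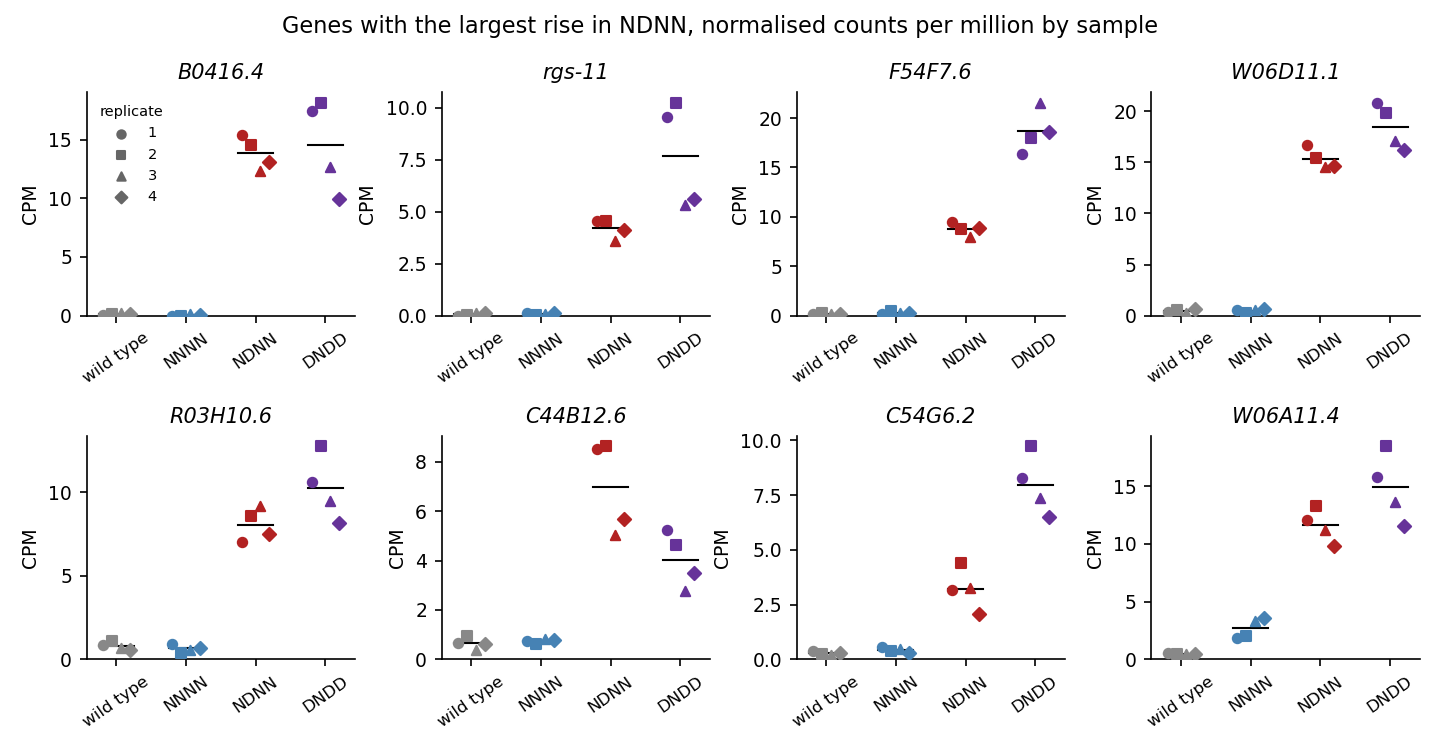
CPM by sample for 8 of the 12 genes with the largest rises in NDNN, with the strains on the horizontal axis, replicate numbers as symbols and group means as lines. The NNNN samples lie near the wild type samples close to 0 in every panel except W06A11.4. The NDNN samples lie above all of them, at 12.3 to 15.4 CPM for B0416.4. No overlap with the NNNN samples was a condition for choosing these genes, and their ranking by log2 difference favours low NNNN values.

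Among rarer transcripts, named after their values were seen, Y48D7A.1 and F46F2.4 had 0 counts in all 4 NNNN and all 4 wild type samples. Y48D7A.1 had 79 counts over the 4 NDNN samples (0.589 to 0.708 CPM), at least 23.8-fold higher than a floor of 3 counts over the NNNN group. F46F2.4 had 64 counts (0.332 to 0.641 CPM), at least 19.4-fold higher than the same floor. These bounds cover counting error only. With 0 counts in NNNN and wild type, both genes passed the filter on low counts only through NDNN and DNDD. Other genes set against the same floor were higher in wild type than in NDNN. Y57G11B.5 had 625 counts in wild type and 28 in NDNN, and F59A6.12 had 89 and 16. For each of them the lowest NDNN sample was at 0 CPM.

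**Figure D4:**
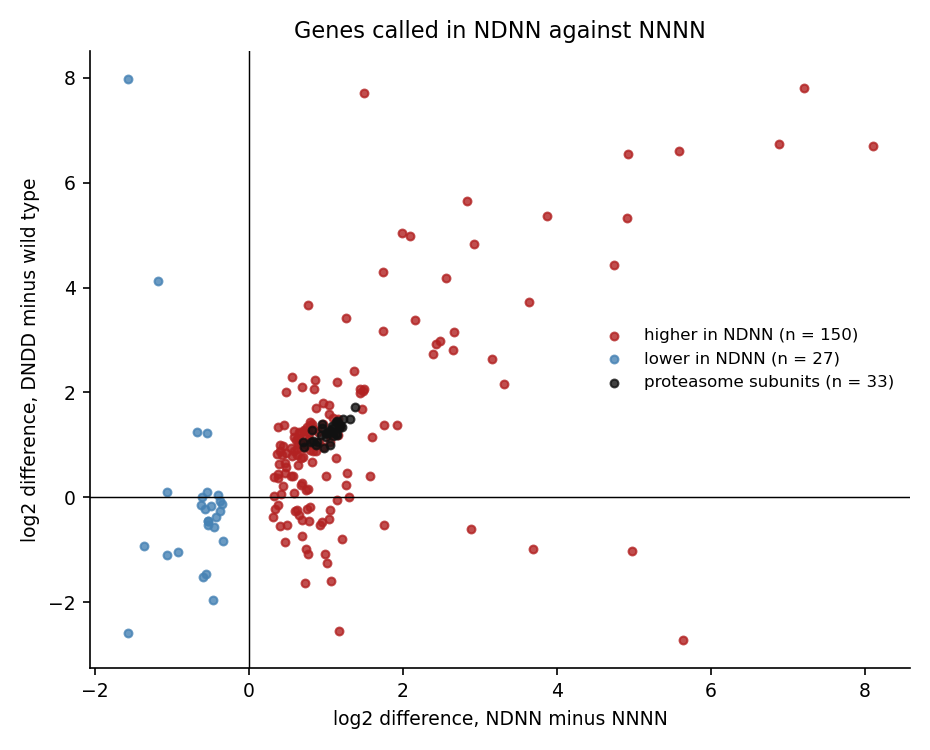
Log2 difference between NDNN and NNNN (horizontal axis) against that between DNDD and wild type (vertical axis), 1 point a gene, for the called genes that were tested in both. The 2 differences compare separate samples, but the spread behind the calls was fitted on all 16 samples. The 33 proteasome subunits (black) lie to the upper right of 0 on both axes, as do most of the 150 other higher genes (red), while the 27 lower genes (blue) lie on both sides of 0 on the vertical axis.

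The called genes were also measured in DNDD against wild type, which compares other samples than NDNN against NNNN. The choice of genes was not independent of those samples. The spread and replicate terms behind the calls were fitted on all 16 samples, DNDD and wild type included. Of the 184 higher genes, 183 were tested there, and 138 were higher and 19 lower in DNDD, where 24.3% and 18.4% of all genes were. At a 2-fold change and an adjusted p below 0.01, 103 of the 183 were higher in DNDD (11.8% of all genes). Of the 30 lower genes, 27 were tested, and 13 were lower and 4 higher in DNDD. In the other direction, 1692 genes were at least 2-fold higher in DNDD than in wild type at an adjusted p below 0.01, and of these 103 were higher and 4 lower in NDNN than in NNNN, or 6.09% and 0.236%. The median difference of the 1692 in NDNN minus NNNN was -0.08. With replicate numbers left out of the DNDD fit, 495 genes were chosen, 100 of them were higher in NDNN (20.2%), and the median was 0.19, so its sign turned with that choice. Of the 630 genes lower in DNDD (4.38% of those tested), 7 were higher and 6 lower in NDNN, or 1.11% and 0.952%. Of all genes tested in NDNN against NNNN, 1.24% were higher and 0.202% lower.

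Few genes of detoxification, the other known set of SKN-1 targets, passed the test in either direction. The same held for all genes tested, of which 1.24% were higher and 0.202% lower. gcs-1 encodes the rate-limiting enzyme of glutathione synthesis. It was at 827, 803, 693 and 565 CPM in NNNN and at 540, 614, 395 and 444 CPM in NDNN, against 97.8 to 118 CPM in wild type. The groups overlapped, but NDNN was lower in all 4 same-numbered pairs, and the difference of -0.54 (SE 0.11) passed (adjusted p = 0.029), though not without the replicate numbers (adjusted p = 0.306), with upper-quartile scaling, or when NDNN replicate 1, 3 or 4 or NNNN replicate 1, 2 or 3 was left out. gst-4, the glutathione S-transferase gene most used to report SKN-1 activity, had 1865 to 2737 CPM in NNNN and 1821 to 2371 CPM in NDNN, with wild type at 32.3 to 46.5 CPM. Its difference of -0.21 (SE 0.254) did not pass (adjusted p = 0.764).

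Among 45 glutathione S-transferase genes tested, 0 were higher and 1 lower at an adjusted p below 0.05 (edgeR). At an unadjusted p below 0.05, 5 were higher and 5 lower, DESeq2 called 1 higher and 3 lower, and the median was 0.09. The lower one was gst-34, with 73.7, 68.8, 50.7 and 23.3 CPM in NNNN and 29.3, 40, 15 and 4.59 CPM in NDNN. It was all but silent in wild type, with at most 0.0435 CPM, and at 0.897 to 7.04 CPM in DNDD. The groups overlapped because NNNN replicate 4 lay below NDNN replicates 1 and 2. The difference of -1.57 (SE 0.299, adjusted p = 0.0198) did not pass without the replicate numbers (adjusted p = 0.552). Nor did it when NDNN replicate 1, 3 or 4 or NNNN replicate 3 or 4 was left out. Other members that NNNN held above wild type had like values without a call, such as gst-40 (135 against 74.2 CPM on average, difference -0.86, adjusted p = 0.0503) and gst-12 (46.1 against 27.5 CPM, -0.76). The family as a whole did not fall: 29 of the 45 differences were positive and 16 negative. All NDNN samples lay above all NNNN samples for 6 members and below them for 3 (4.67% and 2.43% of all genes).

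Of 63 UDP-glucuronosyltransferase genes, which couple sugars to toxins, 1 was higher and 1 lower in edgeR (9 and 5 at an unadjusted p below 0.05, 2 and 2 in DESeq2). ugt-65 was at 17.3, 11.1, 12.9 and 11.1 CPM in NNNN and at 9.52, 7.34, 3.57 and 5.22 CPM in NDNN, without overlap (difference -1.06, SE 0.198). ugt-41 was at 3.74, 4.46, 5.11 and 8.02 CPM and at 7.53, 10.1, 16.7 and 10.2 CPM (difference 1.05, SE 0.18), with wild type above both at 21.1 to 32.5 CPM. Both lost their call without the replicate numbers. ugt-65 also lost it without NDNN replicate 1 or 4 or NNNN replicate 3 or 4, and ugt-41 without NNNN replicate 3. At an unadjusted p below 0.05, 16 of 61 cytochrome P450 genes were higher and 0 lower, against 8.85% and 6.54% of all genes. DESeq2 called 4 and 0. In edgeR 1 was higher and 0 lower at an adjusted p below 0.05. It was cyp-25A1, at 5.47, 6.89, 6.39 and 4.91 CPM in NNNN and 15.5, 10.8, 15 and 13.6 CPM in NDNN (difference 1.21, SE 0.165, adjusted p = 0.00161), again under wild type at 24.5 to 34.5 CPM. Of 42 dehydrogenase genes, dhs-22 (0.69) and dhs-23 (1.30) were higher, and the call for dhs-23 was lost without the replicate numbers (adjusted p = 0.196) or without NDNN replicate 1 or 4 or NNNN replicate 4. Besides gcs-1, no gene of 13 for glutathione and thioredoxin metabolism was called (3 higher and 2 lower at an unadjusted p below 0.05, gcs-1 included, and 1 higher in DESeq2). Of 18 genes for superoxide dismutases, catalases and peroxidases 0 were called by edgeR or DESeq2, with 3 higher and 0 lower at an unadjusted p below 0.05. Of 28 ABC transporter genes 0 were called by edgeR, with 4 higher and 5 lower at an unadjusted p below 0.05 and 2 lower in DESeq2.

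**Figure D5:**
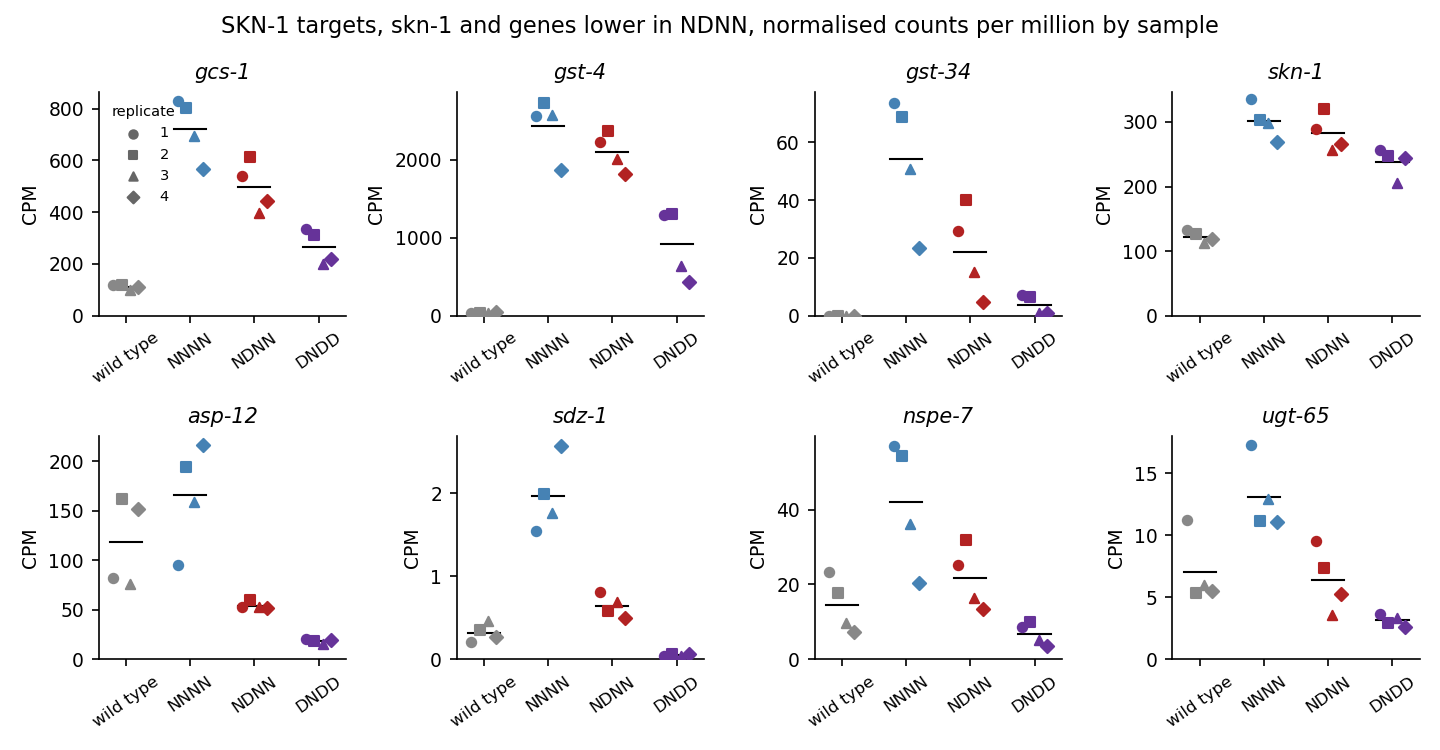
CPM by sample in the 4 strains for 2 genes used as reporters of SKN-1 (gcs-1, gst-4), for skn-1 and for 5 genes that were lower in NDNN. Symbols are replicate numbers and lines group means. The NDNN mean lies between NNNN and DNDD in every panel, and the NDNN and NNNN samples overlap for gcs-1, gst-4, gst-34, skn-1 and nspe-7.

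Of 10 genes for SKN-1 and its regulators, 0 were higher or lower in edgeR, 0 and 1 at an unadjusted p below 0.05, and DESeq2 called 1 lower. The lowest was wdr-23, the adaptor that targets SKN-1C for degradation, with a mean of 313 CPM in NNNN, 226 CPM in NDNN and 60.5 CPM in wild type (difference -0.46, SE 0.11, adjusted p = 0.064). The kinase genes pmk-1, sek-1 and nsy-1, which act upstream of SKN-1C, had differences of -0.07, -0.04 and 0.07.

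Only asp-12 and sdz-1 were lower by more than 2-fold at an adjusted p below 0.01. asp-12, a member of the aspartyl protease family, had 95.2, 194, 159 and 216 CPM in NNNN and 52.4, 60, 52.6 and 51.3 CPM in NDNN, and its NDNN samples were much closer to each other than its NNNN samples. Its difference was -1.57 (SE 0.216, adjusted p = 0.00173), and wild type, at 75.8 to 162 CPM, lay above NDNN and DNDD, at 15.4 to 20.8 CPM, below it. sdz-1, named for its dependence on SKN-1 in the early embryo, was at 1.55, 2, 1.76 and 2.57 CPM in NNNN and at 0.81, 0.579, 0.693 and 0.499 CPM in NDNN (difference -1.59, SE 0.257, adjusted p = 0.006). Both were also called without the replicate numbers, and without NDNN replicate 2 or NNNN replicate 3 neither passed both cuts.

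nspe-7, of a nematode-specific peptide family, illustrates what the replicate numbers contributed. It had 57.1, 54.2, 36.3 and 20.3 CPM in NNNN and 25.2, 31.7, 16.4 and 13.5 CPM in NDNN. The groups overlapped, yet NDNN was lower in all 4 pairs (difference -0.92, SE 0.125, adjusted p = 0.00164 with the replicate numbers and 0.472 without). C18D11.3 fell from 47.8 to 55.3 CPM in NNNN to 26.9 to 38.6 CPM in NDNN (difference -0.62), close to its wild type range of 29.9 to 35.8 CPM. F44G4.1 (-0.38) and F37H8.6 (-1.78, at a mean of 0.47 CPM in NNNN) completed the genes chosen by smallest p. C18D11.3, F44G4.1 and F37H8.6 each lost the call without NDNN replicate 3 or 4 or NNNN replicate 3, among other single samples. F44G4.1 also lost it without the replicate numbers (adjusted p = 0.126). F37H8.6, with 16 counts over the NDNN samples, lost it in the 8-sample fits. Others of the 30, named after their values were seen, were irg-1, an infection response gene (-1.36), B0462.4 (-1.17), the methyltransferase gene prmt-1 (-0.54) and the RNA polymerase I subunit gene rpoa-2 (-0.53).

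Some of the higher genes were low in NNNN and partly raised in NDNN without reaching wild type. Of the 184, 78 were lower and 15 higher in NNNN than in wild type, where 25.2% of all genes were lower. In NDNN against wild type, 32 were lower and 132 higher. These comparisons share samples with the calls, and a choice of genes higher in NDNN than in NNNN favours low NNNN values. Besides cyp-25A1 and ugt-41, such genes included spp-18, of the saposin-like antimicrobial proteins. It had 8.56, 8.42, 7.46 and 10 CPM in NNNN, 16.1, 11.8, 17 and 23 CPM in NDNN and 40.4 to 50.3 CPM in wild type (difference 0.96, SE 0.136). The metallothionein gene mtl-2 averaged 131 CPM in NNNN, 224 CPM in NDNN and 497 CPM in wild type (difference 0.77), and the polyketide synthase gene pks-1 2.98, 6.72 and 57 CPM (1.17). These were named after their values were seen, as were Y39B6A.1 (0.74), tre-2, a trehalase gene (0.47), and C42D4.2 (1.07). Among defence genes, 1 of 33 lysozyme and saposin-like genes (spp-18) was higher, and 3 of 109 C-type lectin genes were higher (clec-6 at 1.15, clec-206 at 0.99 and clec-80 at 0.79) and 1 lower (clec-72 at -0.60). The shares that were higher, 3.03% and 2.75%, rest on few calls. Of all genes tested, 1.24% were higher and 0.202% lower. Of the 4 lectin calls none held without the replicate numbers. Of 195 nuclear hormone receptor genes, which encode ligand-regulated transcription factors, 4 were higher, nhr-57 (0.82), nhr-228 (0.72), nhr-94 (0.68) and nhr-3 (0.34), and their share was near that of all genes. The calls for nhr-57 and nhr-94 were lost without the replicate numbers (adjusted p = 0.175 and 0.318), and those for nhr-57, nhr-94 and nhr-3 each in 6 of the 8 fits that left out 1 sample.

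Neighbours of the proteasome genes were looked at as well, which was decided with the calls in view. Within 5 kb of a subunit gene lay 136 other genes tested, of which 10 were higher (7.35%, against 0.962% of the 14661 genes farther away), and their median was 0.00. None of the 10 overlapped a subunit gene, and 7 lay on its strand. They included dhs-22 and rpoa-12 beside pas-1 (0.69 and 0.80), K05C4.2 beside pbs-5 (1.05), the mitochondrial ribosomal gene mrpl-9 beside rpn-10 (0.85), D1054.3 beside pas-2 (0.80), fndc-1 beside rpn-9 (0.79) and F49C12.11 beside rpn-7 (0.91). K05C4.2 averaged 189 ± 15.7 CPM in NNNN and 392 ± 44.6 CPM in NDNN (SD, n = 4 each). The gap to the subunit gene was 100 to 748 bp for all 10, and whether their transcripts are joined to those of the subunit was not tested. The shuttle gene rad-23 was 1 of the 10 too, 395 bp from rpn-12 on the opposite strand. By chromosome, V held 54 of the 184 higher genes (29.3%, against 20.0% of genes tested) and X held 17 (9.24% against 14.2%), among them B0416.4, rgs-11, F54F7.6 and W06D11.1. On V, C36C5.5, C36C5.12, C36C5.14 and C36C5.15 lie between 3157086 and 3168750 and were all higher (1.04 to 1.75).

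Of 12 genes of the mitochondrial genome, nduo-5, which encodes a subunit of complex I, stood apart. It had 777, 751, 693 and 625 CPM in NNNN and 1535, 1484, 1342 and 1337 CPM in NDNN, and the NDNN samples were also above wild type at a mean of 708 CPM and DNDD at a mean of 933 CPM. Its difference was 1.00 (SE 0.0722, adjusted p = 1.24e-05). In edgeR, ctc-1 was also higher (0.32) and nduo-2 lower (-0.48), but neither passed without the replicate numbers (adjusted p = 0.0937 and 0.0985), and the other 9 were not called. DESeq2 called ctc-3 higher in addition (0.37 in the edgeR fit, adjusted p = 0.0574 there). As for the nuclear genes, form and strain cannot be told apart here.

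Markers of tissues and of stage were read in the same fit, and in whole animals fewer cells of a type cannot be told apart from less RNA per cell. Genes of intestine, body wall muscle, neurons, pharynx and hypodermis were all detected, and of the 8, 6, 11, 5 and 5 tested 0 were called by edgeR. Lists this short would hold few calls even at the shares of all genes (1.24% higher, 0.202% lower). At an unadjusted p below 0.05, 1 neuron gene and 1 hypodermis gene were higher, and DESeq2 called 1 neuron gene. No member of the lists that follow age and the germline was called by edgeR in the 16-sample fit. The 6 vitellogenin genes, which encode yolk proteins, had a median of 1.39, with summed CPM of 95.0 to 221 in NNNN and 109 to 867 in NDNN, far under wild type at 4268 to 23814. None of the 6 was called by edgeR or DESeq2, and 1 was higher at an unadjusted p below 0.05. Of 138 cuticle collagen genes 0 were called by edgeR. At an unadjusted p below 0.05, 51 were higher and 8 lower, against 8.85% and 6.54% of all genes. DESeq2 called 12 higher, while the fit of the 8 samples with replicate numbers called 17 higher and 12 lower. The median of the 138 was 0.41 and their sums were 22674 to 26734 CPM in NNNN and 26125 to 48763 CPM in NDNN. The 14 germline and oocyte genes had a median of -0.45, with sums of 117 to 799 CPM and 88.0 to 426 CPM, which overlapped widely, and 0 were called by edgeR or DESeq2 and 4 were lower at an unadjusted p below 0.05, with 3 called lower in the 8-sample fit with replicate numbers. The part of stage in the differences described here was not tested. Ribosomal protein genes (0 of 76 called, 0 higher and 3 lower at an unadjusted p below 0.05, 1 lower in DESeq2) had a median of -0.07, and the 10 cytosolic and 12 endoplasmic reticulum chaperone genes had -0.18 and -0.11, again with no call in edgeR or DESeq2 and 2 cytosolic members lower at an unadjusted p below 0.05.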

How the data were processed

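RNA was sequenced from polyadenylated transcripts of whole L4 animals. The deposited values are whole-number counts of reads per gene, which the authors made with STAR 2.7.7a on WBcel235 and Ensembl gene models; whether the counting used strand is not given in the sources used here, so overlapping and near-identical genes are uncertain. The deposited gene length was not used. Each column was matched to a sample by its name.

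All 16 samples were fitted in edgeR 4.0.16 (genes kept by filterByExpr at 10 counts a sample and 15 in total, TMM scaling, quasi-likelihood test with group and replicate number as terms, 9 residual degrees of freedom, Benjamini-Hochberg adjustment). CPM are counts relative to the TMM-scaled library total. A standard error is the absolute log2 difference divided by the square root of F. DNDD against wild type was fitted on those 8 samples alone. Depth lay between 23806929 and 30457636 counts a sample. Coordinates are from the WBcel235 annotation.

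Deviations of same-numbered NDNN and NNNN samples from their group means correlated (r = 0.251 to 0.788 over 4 pairs, across 14850 genes); every one of these pairs was positively correlated, but 2 of the 4 NDNN samples correlated more with an NNNN sample of another number (NDNN 1 with NNNN 2, 0.634 against 0.603, and NDNN 3 with NNNN 4, 0.441 against 0.251). The comparison was defined with the numbers as a term, and the fit without them is given beside the results it changes. On simulated counts for 14714 genes, the test called 58% of genes planted at a log2 difference of 0.8 and 99% at 1.5, with 0 of the wrong sign and 7 false calls. The planted genes were all well counted, and the simulated spread followed the trend with expression level. Each replicate number had the same effect in all groups. The rates were therefore not measured for rarer genes or for replicate effects that differ between groups. Genes named are the 12 with the largest rises and falls past 2-fold with at least 1 CPM and no overlap (2 fell), skn-1, gst-4, gcs-1, rpt-3 and unc-119, every proteasome subunit and up to 4 called members of each other list, and the 8 lower genes of smallest p. Members and lists were chosen with earlier results of these data known. Alternatives were DESeq2, other scalings, filters and quasi-dispersions, fits without the replicate numbers or of 8 samples, and leaving out samples. No promoter or protein sequence was analysed here.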

Additional observations from a re-analysis of the deposited data

Results flagged for a closer look

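In groups of 4 samples, 1 sample stood far from the other 3 in 8 of 156 groups of the named genes (78 genes in NNNN and NDNN), and chance alone marks about 1 in 20 groups. The value given for each is the gap to the nearest sample as a share of the group's whole range. Among the proteasome subunits, NDNN replicate 3 was low for rpt-5 (288 CPM, with the others from 348 CPM up; 0.92), rpn-2 (323 CPM, with the next at 406 CPM; 0.835) and rpn-6.1 (167 CPM, with the next at 200 CPM; 0.85). NDNN replicate 1 was high for pbs-3 (408 CPM, with the next at 375 CPM; 0.845), and NNNN replicate 1 was low for pas-7 (166 CPM, with the next at 178 CPM; 0.838). NDNN replicate 2 was high for asp-12 (60 CPM, with the next at 52.6 CPM; 0.847). NNNN replicate 4 was high for clec-206 (3.53 CPM, with the next at 1.45 CPM; 0.861), and NNNN replicate 1 was high for C18D11.3 (55.3 CPM, with the next at 49 CPM; 0.836).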

How the results depend on the processing

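Of the 75 named genes that were called, 52 kept the call under each of 20 settings, the 33 proteasome subunits except rpn-1 among them. rpn-1 lost its call without replicate 2. Not counted in the 20 were the test against a 2-fold change given below, other count filters and a coarser replicate block. unc-119, which was never called (0.05), ranged from -0.00999 to 0.12 when 1 replicate number was left out. With no replicate block, 116 genes were higher and 4 lower at an adjusted p below 0.05, and with the 8 samples alone 345 and 208 with the block and 95 and 4 without it. DESeq2 called 366 and 175. At 2-fold, lower genes numbered 7 in DESeq2, 6 in the 8 samples with the block and 0 without it. Leaving out samples gave 30 to 63 higher and 0 to 2 lower genes at 2-fold, and 82 to 206 and 3 to 46 at an adjusted p below 0.05. A test against a 2-fold change (glmTreat) left 8 higher and 0 lower, and the 1.5-fold cut with an adjusted p below 0.05 gave 152 and 14.

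Of the genes higher in DNDD than wild type, 103 of 1692 (6.09%) were higher in NDNN, and 65 of the 522 with at least 10 CPM (12.5%). Those lower in NDNN numbered 2 of these 522, 0 with no replicate block, 47 in the 8 samples with the block and 20 in DESeq2. Of the genes lower in DNDD, 7 of 630 were higher in NDNN, 13 of 1816 with the 1.5-fold cut, 4 of the 412 with at least 10 CPM, 1 with no replicate block and 19 in DESeq2, and those lower in NDNN were 1, 15 and 15 with no replicate block, in the 8 samples with the block and in DESeq2. Of the 14850 genes tested, 116 were higher and 4 lower with no replicate block. In the 8 samples with the block 345 and 208 were, and in DESeq2 366 and 175. The settings applied to NDNN and NNNN in this paragraph were added after seeing the data. The cause of these changes was not tested.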
